A study of Mus musculus with 8 samples.

Results

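Myelin is the lipid-rich membrane that oligodendrocytes wrap around axons, and the genes described here are 9 genes of mature oligodendrocytes: Mbp, Mobp, Mal, Cnp, Mag, Mog, Opalin, Gjb1 and Aspa. They were taken by symbol as genes of myelin proteins and markers of the mature cell. All 9 were among the 23393 gene symbols of the count files, and all 9 passed the filter on low counts that left 17415 genes for testing. Each library was made from prefrontal cortex, with C57BL6/J as the strain of the mice and 6 to 8 weeks as their age. A group labelled shAdnp had received AAV9, a viral vector that enters neurons and glia, with a short hairpin RNA, and its controls had received AAV9 with green fluorescent protein (GFP). A group labelled shPogz had its own, separate GFP controls. Each of the 4 groups held 2 libraries, described as biological duplicates of bulk tissue, although the series is described with 3 knockdown mice. Replicate numbers are those of the sample titles, and the counts of shPogz replicate 2 carry the number 3 in their column header. The promoter of the vectors is not stated in the labels, and no untreated mice were analysed here. Adnp and Pogz encode chromatin proteins linked to neurodevelopmental disorders, and the title of the series asks for what they share.

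Oligodendrocytes arise from precursor cells that divide and express Pdgfra and Cspg4. On differentiation, the transcription factors Sox10, Olig2 and Myrf switch on the genes of the myelin sheath, and the prefrontal cortex goes on myelinating into adulthood. Compact myelin is held together by basic proteins on the inner face of the membrane (Mbp, Mobp). Looser regions of the sheath carry Cnp, while Mag lies next to the axon and Mog on the outermost face.

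Total counts, a measure of sequencing depth, ran from 27501722 to 69002749 per library. In shAdnp replicate 1 the ribosomal RNA precursor Rn45s made up 7.62% of reads, and elsewhere at most 0.740%. The titles name Adnp and Pogz, whereas the treatment label of both hairpin groups names ASH1L. Adnp itself was at 87.2 and 118 CPM in shAdnp libraries, against 137 and 111 CPM in their GFP controls, and these overlapped. Pogz was at 49.0 and 37.3 CPM in shPogz libraries, against 54.4 and 53.1 CPM in theirs, both shPogz libraries being lower. By edgeR's quasi-likelihood test with Benjamini-Hochberg adjustment over all genes, a fall of the targeted genes was not detected: the log2 fold change was -0.27 (SE 0.19, adjusted p = 0.768) for Adnp in shAdnp and -0.32 (SE 0.16, adjusted p = 0.667) for Pogz in shPogz. Ash1l differed by -0.10 (SE 0.14) in shAdnp and by 0.11 (SE 0.14) in shPogz. The libraries are therefore called by their labels. The tissue label was checked against myelin of the peripheral nerve, and levels are given in CPM, a gene's count relative to the library's total after scaling by the trimmed mean of M-values (TMM). Of the defining genes of Schwann cells, which myelinate peripheral nerve, Prx was at 0.707 to 1.83 CPM, Ncmap at 0.284 to 0.702 CPM, and Pmp2 never exceeded 4 reads. Drp2 and Egr2, which were listed with them, were detected in all 8 libraries, at 80.6 to 120.3 CPM and 7.21 to 23.6 CPM.

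The genes lie on 8 chromosomes of build mm10, with positions from the GENCODE annotation of the same assembly. They are Mbp (chr18:82475146-82585637, plus strand), Mobp (chr9:120149707-120181484, plus strand), Mal (chr2:127633226-127656695, minus strand), Cnp (chr11:100574904-100591729, plus strand), Mag (chr7:30899176-30914873, minus strand), Mog (chr17:37010743-37023398, minus strand), Opalin (chr19:41061710-41077113, minus strand), Gjb1 (chrX:101376378-101385629, plus strand) and Aspa (chr11:73304992-73329596, minus strand). Each is annotated as protein coding, and reads were counted over all transcripts of a symbol. The Mbp locus also makes the longer Golli transcripts outside myelin, which such a count does not separate. Cnp overlaps the coding gene Dnajc7 on the opposite strand over 8912 bases, and Mobp overlaps the non-coding Gm38642 on its own strand over 2447 bases. The strand setting of the counting is not given in the sources used here, so both counts are uncertain to that extent. Mbp and Mog each hold a small non-coding annotation on the opposite strand.

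Upstream sequence is shown for 4 of the genes, and each of these windows holds a match to a motif named below. Whether it bears on the levels of the 9 genes was not tested. The windows are the 250 bases before an annotated start in RefSeq (build GRCm38.p6), written 5′ to 3′ on the strand of the gene. Capitals mark matches on either strand to ACAAAG, the core that SOX factors such as Sox10 bind, or to CTGGCAC or CTGGTAC, forms of the Myrf motif.

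Mobp, chr9:120149492-120149741, plus strand: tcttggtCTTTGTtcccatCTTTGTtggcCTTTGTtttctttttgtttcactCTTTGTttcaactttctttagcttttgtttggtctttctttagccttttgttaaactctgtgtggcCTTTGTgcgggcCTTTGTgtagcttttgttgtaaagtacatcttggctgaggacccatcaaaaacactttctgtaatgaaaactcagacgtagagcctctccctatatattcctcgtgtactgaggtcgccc

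Cnp, chr11:100574689-100574938, plus strand: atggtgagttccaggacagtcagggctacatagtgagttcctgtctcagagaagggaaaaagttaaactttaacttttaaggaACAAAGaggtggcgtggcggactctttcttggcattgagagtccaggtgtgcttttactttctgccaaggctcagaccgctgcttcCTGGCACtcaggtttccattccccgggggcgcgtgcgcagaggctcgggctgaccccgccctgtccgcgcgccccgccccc

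Mag, chr7:30914864-30915113, minus strand: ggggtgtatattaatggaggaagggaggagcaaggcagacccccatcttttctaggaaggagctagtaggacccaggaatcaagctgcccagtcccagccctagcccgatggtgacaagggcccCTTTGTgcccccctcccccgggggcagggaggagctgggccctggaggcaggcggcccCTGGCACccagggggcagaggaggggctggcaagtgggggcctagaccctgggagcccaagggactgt

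Mog, chr17:37023399-37023648, minus strand: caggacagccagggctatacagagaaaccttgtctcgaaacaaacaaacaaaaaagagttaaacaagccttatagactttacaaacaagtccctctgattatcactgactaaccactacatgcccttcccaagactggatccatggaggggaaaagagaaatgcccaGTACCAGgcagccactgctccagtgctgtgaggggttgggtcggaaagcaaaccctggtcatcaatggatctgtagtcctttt

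The sequence table held 13 such windows for 8 of the 9 genes, several of them for Mag and Gjb1. The Mobp window held 6 matches to ACAAAG and no Myrf form. The Cnp window held 1 match to ACAAAG and 1 to CTGGCAC, and so did the Mag window shown. The later part of the 50 bases after that Mag start was not found as an unbroken stretch in the GENCODE transcripts of Mag. Such a search can miss a start whose first exon ends within these bases, so it does not decide whether the start is used. The same part was found for the Mag window at chr7:30914322-30914571, which held no match to any of the motifs. The Mog window held 1 match to CTGGTAC. The windows of Mal and Aspa, which are not shown, held neither ACAAAG nor a Myrf form. Over the 13 windows, 7 held ACAAAG, from 5 genes, and 4 held a Myrf form. Both counts include 2 overlapping Mag windows that share the same matches, so the counts are a description only. Among all 32851 windows of the table, 16.5% held ACAAAG and 5.93% a Myrf form. The palindrome CAGCTG, an E-box of the kind Olig2 binds, was in 1 of the 13 windows, that of Aspa, and in 13% of all. No match in the windows shown overlapped another. A match in a window of this length does not show that a factor binds there.

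Per kilobase of annotated exon, Mbp was the gene with the highest level, at 161 CPM per kilobase (101 to 215 over the 8 libraries). Cnp followed at 74.8 CPM per kilobase (54.8 to 105 over the 8 libraries) and Mal at 66.5 CPM per kilobase (36.9 to 101 over the 8 libraries), and their order was reversed in 1 of the 8 libraries. Mag stood at 35 CPM per kilobase (25.2 to 49.1 over the 8 libraries). Mog, at 25.4 CPM per kilobase (14.9 to 40.9 over the 8 libraries), and Mobp, at 25.2 CPM per kilobase (14.5 to 37.2 over the 8 libraries), could not be told apart, Mog being the higher in 5 libraries. Gjb1 was at 4.97 CPM per kilobase (3.11 to 7.6 over the 8 libraries). Opalin, at 4.96 CPM per kilobase (3.27 to 6.94 over the 8 libraries), was close to it, with Gjb1 the higher in 3 libraries. Aspa was lowest at 2.62 CPM per kilobase (1.63 to 4.35 over the 8 libraries). The other neighbours in this order kept it in all 8 libraries. The length used is the union of all exons of a gene, which understates a gene that mainly makes a short transcript.

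Among the basic proteins of compact myelin, Mbp was at 1743 and 856 CPM in shAdnp libraries, against 1152 and 1644 CPM in their GFP controls. It was at 1294 and 1823 CPM in shPogz libraries, against 1189.9 and 1212 CPM in theirs. Values are given as replicate 1 and then replicate 2 of each group throughout. The shAdnp libraries thus held both the lowest Mbp level of the study and a level above both of their controls, while both shPogz libraries lay above both of theirs. Mobp, which encodes a second basic protein of compact myelin, was at 218 and 99.5 CPM in shAdnp libraries, against 134 and 212 CPM in their GFP controls. In the other set it was at 159.6 and 255 CPM in shPogz libraries, against 138 and 164 CPM in theirs. The groups overlapped in both sets, since shPogz replicate 1 lay below its second control. Mal, a proteolipid of myelin rafts that takes part in sorting myelin proteins, was at 238 and 102 CPM in shAdnp libraries, against 148 and 243 CPM in their GFP controls. It was at 168 and 281 CPM in shPogz libraries, against 132 and 166 CPM in theirs. Both shPogz libraries were above both controls, shPogz replicate 1 only narrowly (168 against 166 CPM), whereas the shAdnp libraries overlapped theirs.

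Cnp encodes a phosphodiesterase of non-compact myelin and stood at 326 and 199 CPM in shAdnp libraries, against 204 and 310.2 CPM in their GFP controls. In the Pogz set it was at 259.8 and 381 CPM in shPogz libraries, against 217 and 280.0 CPM in theirs. The groups overlapped in both sets. Mag, the adhesion protein that faces the axon, was at 178 and 103 CPM in shAdnp libraries, against 103 and 158 CPM in their GFP controls. It was at 139 and 199.9 CPM in shPogz libraries, against 112 and 148 CPM in theirs. Mag therefore overlapped in both sets, with shAdnp replicate 2 level with the lower control. Mog, an immunoglobulin-like protein of the outer sheath, was at 48.7 and 25.4 CPM in shAdnp libraries, against 30.5 and 44.4 CPM in their GFP controls. It was at 44.3 and 69.6 CPM in shPogz libraries, against 37.2 and 45.9 CPM in theirs. The highest Mog level of the 8 libraries was that of shPogz replicate 2, and the lowest that of shAdnp replicate 2.

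Opalin, a transmembrane protein found in mature oligodendrocytes, was at 17.0 and 9.65 CPM in shAdnp libraries, against 14 and 16.5 CPM in their GFP controls. In the Pogz set it was at 13.5 and 20.4 CPM in shPogz libraries, against 12.1 and 13.8 CPM in theirs. Gjb1 encodes connexin 32, a gap junction protein of the sheath, and was at 13 and 5.31 CPM in shAdnp libraries, against 5.48 and 8.61 CPM in their GFP controls. It was at 7.04 and 11.8 CPM in shPogz libraries, against 9.48 and 7.11 CPM in theirs. Gjb1 was the gene with the fewest reads, between 268 and 746 per library, and the only member whose first Pogz-set control exceeded the second. Aspa encodes aspartoacylase, which releases acetate from N-acetylaspartate, and was at 17.1 and 9.68 CPM in shAdnp libraries, against 14 and 15.6 CPM in their GFP controls. It was at 14.7 and 25.9 CPM in shPogz libraries, against 13.2 and 14.6 CPM in theirs. Both shPogz libraries were above both controls for Aspa, but shPogz replicate 1 by a margin of less than 1 CPM. For Opalin and Gjb1 the groups overlapped in both sets.

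**Figure D1:**
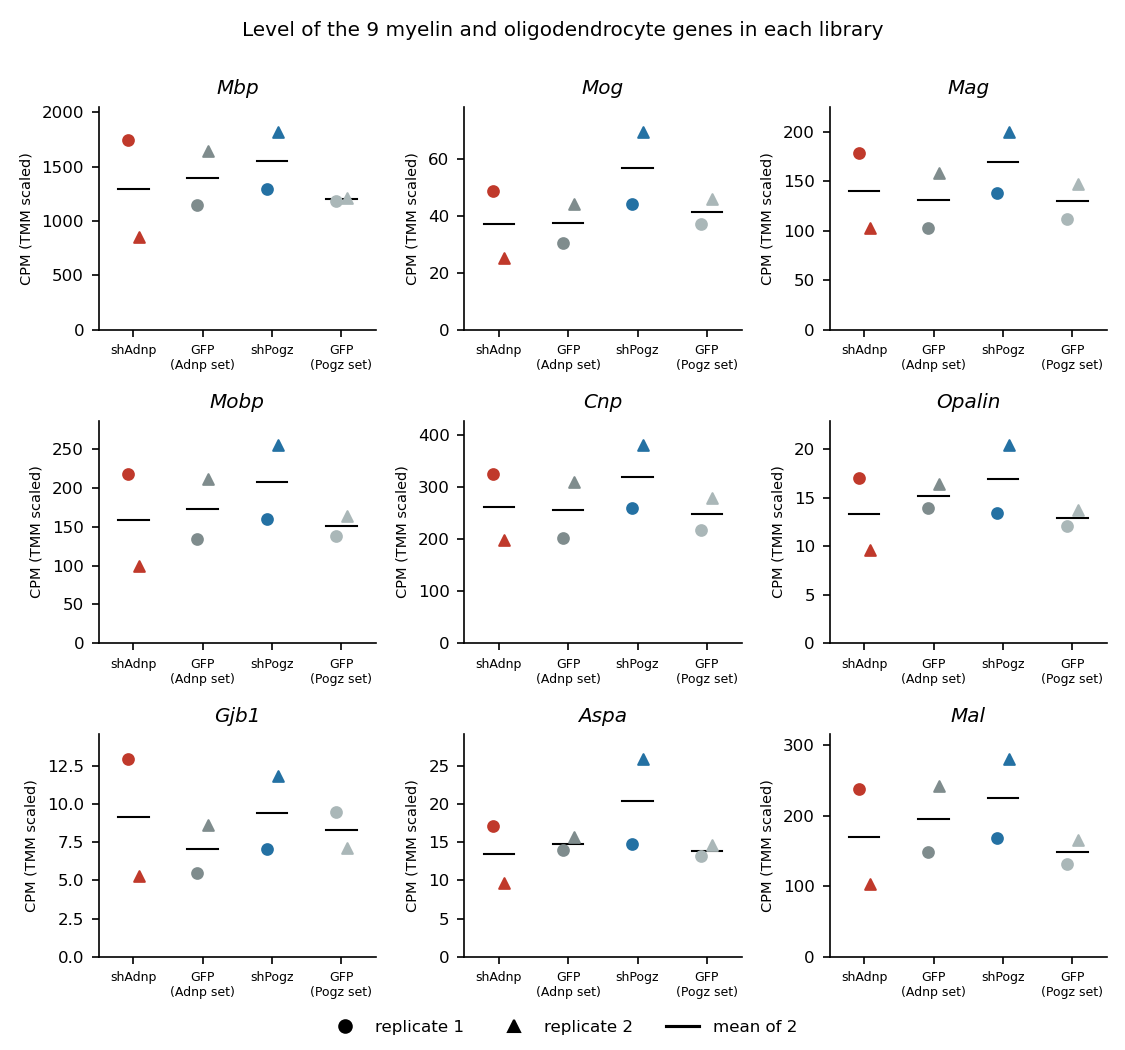
CPM (TMM scaled, linear axis from 0) of each of the 9 genes in the 8 libraries, by group; circles are replicate 1, triangles replicate 2, and the line is the mean of both. In shAdnp every gene is higher in replicate 1 than in replicate 2, and in shPogz every gene is higher in replicate 2.

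Whether these genes differed with the Adnp vector was read from shAdnp set against its own GFP pair. None of the 9 changed by the test. The median log2 fold change was -0.10, beside -0.01 over all 17415 genes, with 3 members above 0 and 6 below. Mbp averaged 1299.6 ± 627 CPM in shAdnp libraries and 1398 ± 348 CPM in controls (SD, n = 2 each), a log2 fold change of -0.10 (SE 0.35, 95% interval -0.94 to 0.73). At the ends of the range Mal had -0.20 (SE 0.51, 95% interval -1.49 to 1.09) and Gjb1 0.38 (SE 0.47, 95% interval -0.74 to 1.49). Mog, at -0.02, turned to 0.0036 with upper quartile scaling. All 9 intervals held 0, and between them they reached from -1.49 to 1.49, so rises and falls of that order were not resolved with 2 libraries a group. By edgeR 0 of 9 members passed an adjusted p of 0.05, as did 0% of all genes, and 0 of 9 had an unadjusted p under 0.05, against 8.36% of all genes. DESeq2 and limma-voom also called 0 members, adjusted or not. Adjusted p-values by edgeR were from 0.882 to 0.996. No member had both shAdnp libraries on one side of both controls, while 20.4% of all genes had both above and 21% both below. In bulk tissue, fewer cells of a type and less RNA per cell cannot be told apart.

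With the Pogz vector the same question gave values above 0, and again no member passed. All 9 genes had a log2 fold change above 0, from 0.19 for Gjb1 to 0.59 for Mal, with a median of 0.39 beside -0.02 over all genes. Mbp averaged 1558 ± 374 CPM in shPogz libraries and 1201 ± 15.9 CPM in controls (SD, n = 2 each), a log2 fold change of 0.38 (SE 0.35, 95% interval -0.46 to 1.21). Aspa, with the smallest p of the 9, averaged 20.3 ± 7.90 CPM in shPogz libraries and 13.9 ± 0.973 CPM in controls, a log2 fold change of 0.55 (SE 0.32, 95% interval -0.21 to 1.30), with an edgeR adjusted p of 0.680. For Mal the value was 0.59 (SE 0.51, 95% interval -0.70 to 1.88). Each of the 9 intervals held 0, and between them they reached from -0.93 to 1.88. By edgeR 0 of 9 members passed the adjusted p, as did 0% of all genes, and 0 of 9 had an unadjusted p under 0.05, against 6.7% of all genes. DESeq2 and limma-voom called 0 members, adjusted or not. Mbp, Aspa and Mal, 3 of the 9, had both shPogz libraries above both controls, against 19% of all genes, and 0 of 9 had both below, against 21.3%. For Aspa and Mal, shPogz replicate 1 was only narrowly above the higher control.

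**Figure D2:**
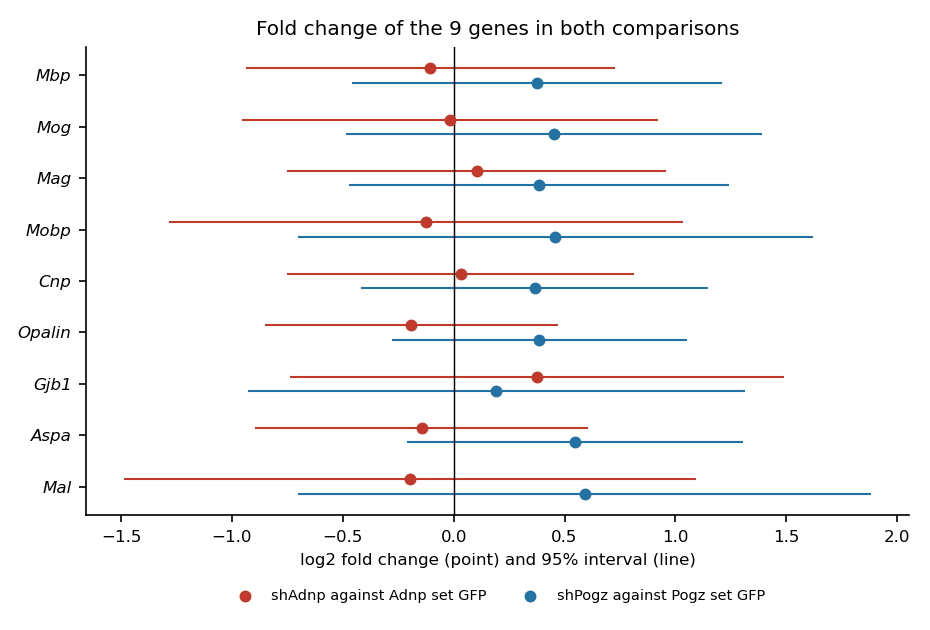
Log2 fold change (points) and its 95% interval (lines) of the 9 genes in shAdnp (upper, red) and shPogz (lower, blue) against their own GFP controls. All lines cross 0, and the shPogz points lie between 0.19 and 0.59.

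The responses to both vectors were compared directly by the difference of the fold changes. The shPogz response minus the shAdnp response had a median of 0.48 over the 9 genes, beside -0.02 over all genes, with Gjb1 alone below 0. The difference was 0.79 (SE 0.72, 95% interval -1.04 to 2.62) for Mal, 0.69 (SE 0.46, 95% interval -0.37 to 1.76) for Aspa and -0.18 (SE 0.66, 95% interval -1.76 to 1.40) for Gjb1. No member passed edgeR's test of the difference (0 of 9 adjusted, as for 0% of all genes, and 0 of 9 unadjusted, against 3.51% of all genes; DESeq2 and limma-voom 0 of 9). With a library left out, the difference was 0.32 (without shAdnp replicate 2) to 1.52 (without shAdnp replicate 1) for Mal, and 0.23 (without shPogz replicate 2) to 1.16 (without shAdnp replicate 1) for Aspa. For Gjb1 it ranged over -0.67 to 0.60, and for the median over 0.089 to 1.05, the ends again being set by leaving out replicate 2 or replicate 1 of shAdnp. The intervals are wide enough to hold differences of either sign, and a p that misses the threshold does not show that the vectors act alike on these genes. Averaged over both vectors with a term for the set, the 9 genes had log2 fold changes from 0.09 to 0.29 and a median of 0.20. That median was -0.02 without shPogz replicate 2 and 0.43 without shAdnp replicate 2. None passed by edgeR there either (0 of 9 adjusted, as for 0% of all genes, and 0 of 9 unadjusted, against 12.5% of all genes; DESeq2 and limma-voom 0 of 9).

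Between the 2 pairs of GFP controls, which carry no hairpin, no member passed. The Pogz-set controls set against the Adnp-set controls gave a median log2 fold change of -0.09, from -0.39 for Mal to 0.23 for Gjb1, and Mag near 0 on either side under other scalings. The median was -0.30 without the first Adnp-set control and 0.17 without the second. By edgeR 0 of 9 passed the adjusted p, as did 0.00574% of all genes (1 gene), and 0 of 9 had an unadjusted p under 0.05, against 7.35% of all genes, with 0 of 9 by DESeq2 and limma-voom too. Opalin alone was lower in both Pogz-set controls than in both Adnp-set controls, 1 of 9 beside 22.3% of all genes, and 0 of 9 were higher in both, beside 21.2%.

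At the median, the 9 genes differed more between replicates of a group than all genes did. In shAdnp all 9 were higher in replicate 1, by 1.63 to 2.44 times. In shPogz all 9 were higher in replicate 2, by 1.41 to 1.76 times, and in the Adnp-set controls all 9 were higher in replicate 2, by 1.12 to 1.64 times. In the Pogz-set controls 8 of 9 were higher in replicate 2, by at most 1.33 times, and Gjb1 was higher in replicate 1. On the log2 CPM scale the median gap between replicates was 0.94 for the 9 genes and 0.21 for all genes in shAdnp, and 0.65 against 0.22 in shPogz. It was 0.61 against 0.15 in the Adnp-set controls and 0.30 against 0.18 in the Pogz-set controls. The within-group gap of the 9 genes in shAdnp thus exceeded their fold change in either comparison.

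Within this spread the 9 genes kept their proportions. Summed over the 9, the level was 2799 and 1410.3 CPM in shAdnp libraries, against 1805 and 2652 CPM in their GFP controls. It was 2099 and 3067 CPM in shPogz libraries, against 1861 and 2051 CPM in theirs. Their share of all counts was lowest in shAdnp replicate 2, at 0.141%, and highest in shPogz replicate 2, at 0.333%. In shAdnp replicate 2 all 9 were at their lowest of the 8 libraries, and in shPogz replicate 2 all but Gjb1 were at their highest. Single genes ranged over 0.93 to 1.45 log2 units between the 8 libraries. Measured against the mean of the 9 in the same library, the range was 0.24 for Mbp, at most 0.46 for the other members except Gjb1, and 0.69 for Gjb1. As a description, Pearson's r between pairs of members over the 8 libraries had a median of 0.91 over 36 pairs and ran from 0.73 to 1.00. These libraries share their scaling, and members of a cell type share their cells.

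**Figure D3:**
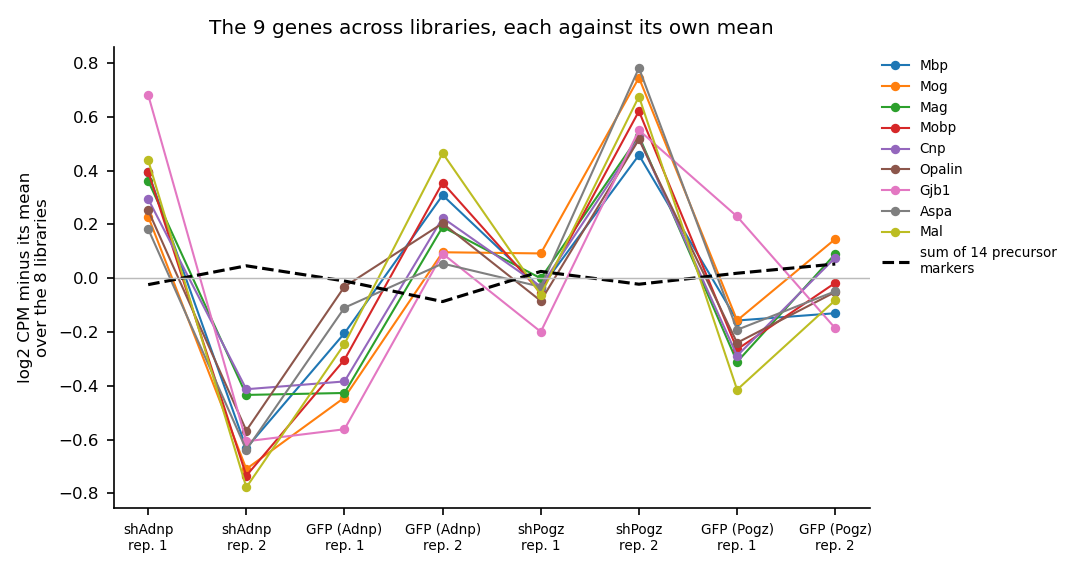
Log2 CPM of each of the 9 genes minus its own mean over the 8 libraries (vertical axis, log2 units), with the summed level of 14 precursor markers as a dashed line; the lines only join the values of a gene. All 9 genes are lowest in shAdnp replicate 2 and all but Gjb1 highest in shPogz replicate 2, while the precursor sum stays between 740 and 816 CPM.

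Because each group holds 2 libraries, the direction in the Adnp set turned with the library left out. Without shAdnp replicate 1 the median log2 fold change of the 9 genes was -0.60 with 0 of 9 above 0, and without shAdnp replicate 2 it was 0.35 with 9 of 9 above 0. Without the first GFP control of that set it was -0.25, and without the second it was 0.24. For shPogz the median was 0.08 without shPogz replicate 2, with 8 of 9 above 0, and 0.69 without shPogz replicate 1. It was 0.36 without the first control and 0.63 without the second. Without shPogz replicate 2 the fold change was 0.084 for Aspa, 0.18 for Mal, 0.11 for Mbp and -0.23 for Gjb1, and without shPogz replicate 1 it was 0.94, 0.95, 0.64 and 0.56 for these genes in the same order. No member passed with any of the 8 libraries left out.

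**Figure D4:**
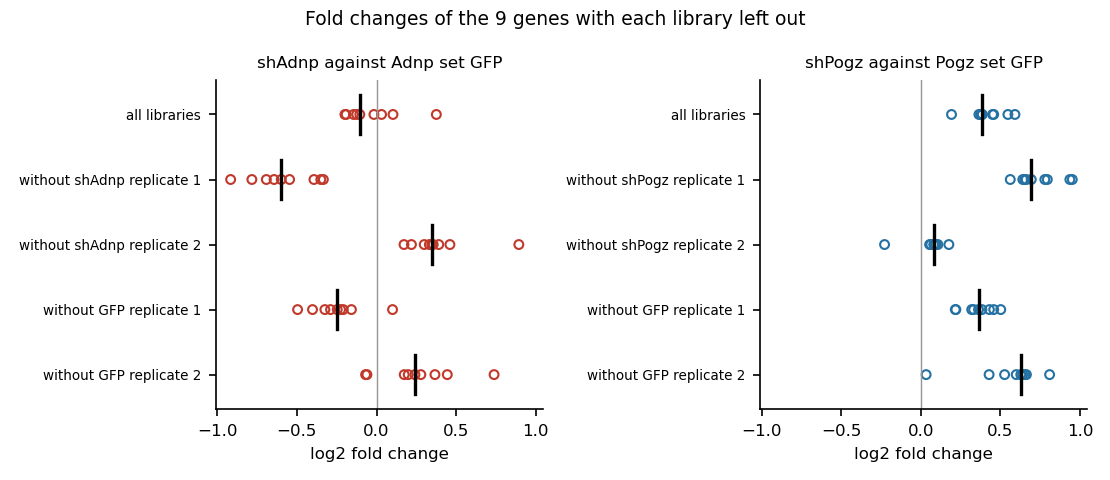
Log2 fold changes of the 9 genes (circles) and their median (bar) with all libraries and with each library of the set left out, for shAdnp (left) and shPogz (right). The shAdnp bar moves between -0.60 and 0.35, and the shPogz bar between 0.08 and 0.69.

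The genes whose levels followed the 9 most closely over the 8 libraries were Sptssa, Taldo1, Ermn, Ugt8a, Fa2h, Cryab and Gpbp1l1, with Pearson's r from 0.973 to 0.979 between log2 CPM and the mean of the standardised members. They were picked for this likeness, so r is a description. Ermn encodes a cytoskeletal protein of late oligodendrocytes, and Ugt8a and Fa2h are enzymes of galactolipid synthesis for myelin. Sptssa encodes a subunit of serine palmitoyltransferase, the first enzyme of sphingolipid synthesis, and Taldo1 an enzyme of the pentose phosphate pathway. Ermn was at 61.0 and 23.4 CPM in shAdnp libraries, against 37.4 and 53.7 CPM in their GFP controls. It was at 49.3 and 84.6 CPM in shPogz libraries, against 42.2 and 47.9 CPM in theirs. Ermn therefore had its lowest level in shAdnp replicate 2 and its highest in shPogz replicate 2, as did all 7 of these genes. The mean of the 9 has the same extremes, so this follows from how the 7 were picked.

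Other parts of the oligodendrocyte lineage were read from further lists, which held 120 tested genes. Not all of these are markers of the lineage: 21 are signals and receptors of myelination and 7 belong to N-acetylaspartate handling. Of the genes at an unadjusted p under 0.05 by edgeR, Igf1, Rimkla and Slc13a3 in shAdnp come from these, as do Folh1 and Rimkla in shPogz. By edgeR 0 of the 120 passed the adjusted p in either comparison, with 10 at an unadjusted p under 0.05 in shAdnp (8.33%, against 8.36% of all genes) and 4 in shPogz (3.33%, against 6.7% of all genes). DESeq2 called 0 of them in either comparison, with 13 in shAdnp at an unadjusted p under 0.05 (10.8%, against 8.67% of all genes) and 10 in shPogz (8.33%, against 7.56%). With limma-voom 0 were called, with 13 in shAdnp (10.8%, against 9.42% of all genes) and 2 in shPogz (1.67%, against 5.91%). Of 18 other genes of myelin and axon-glia contact, 7 were above 0 in shAdnp (median -0.02) and 14 in shPogz (median 0.29). Of 12 genes of myelin lipid synthesis, 9 were above 0 in shAdnp (median 0.06) and 8 in shPogz (median 0.22). Of 23 further markers of mature oligodendrocytes, 14 were above 0 in shAdnp (median 0.10) and 20 in shPogz (median 0.36). Mean log2 CPM of these 23 was 4.64 and 5.08 in shPogz libraries, against 4.36 and 4.61 in their GFP controls. For the 18 myelin genes it was 6.26 and 6.63, against 6.18 and 6.19. For the 12 lipid genes it was 4.55 and 4.86, against 4.51 and 4.55. In each list shPogz replicate 1 thus lay nearer its controls than shPogz replicate 2 did.

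Of 11 transcription factors of the lineage, 7 were above 0 in shAdnp (median 0.07) and 9 in shPogz (median 0.39). Their mean log2 CPM was 3.21 and 3.61 in shPogz libraries, against 3.06 and 3.15 in their GFP controls. Myrf, the factor that switches on myelin genes, was at 12.4 and 12.4 CPM in shAdnp libraries, against 13 and 13.1 CPM in their GFP controls, and at 17.0 and 20.6 CPM in shPogz libraries, against 11.5 and 17.5 CPM in theirs. Its shAdnp libraries were below both controls by less than 1 CPM, and its shPogz libraries overlapped theirs. Sox10 was at 34.6 and 18.8 CPM in shAdnp libraries, against 16.6 and 20.6 CPM in their GFP controls, and at 22.2 and 30.6 CPM in shPogz libraries, against 19.6 and 17.3 CPM in theirs. Both shPogz libraries were above both controls for Sox10, and its log2 fold change there was 0.52 (SE 0.29; edgeR unadjusted p = 0.117, adjusted p = 0.670). In shAdnp, where the libraries overlapped their controls, Sox10 also had 0.52 (SE 0.29; edgeR unadjusted p = 0.112, adjusted p = 0.717). Nkx2-2, an early factor of the lineage with under 2 CPM in every library, had a log2 fold change of 0.94 (SE 0.38; edgeR unadjusted p = 0.0361, adjusted p = 0.542) in shAdnp and 0.42 (SE 0.39) in shPogz.

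Markers of precursors were summed in the same way as the 9 genes. The sum of 14 precursor markers was 773 and 812 CPM in shAdnp libraries, against 781 and 740.3 CPM in their GFP controls. It was 800.1 and 774 CPM in shPogz libraries, against 796 and 816 CPM in theirs. Over the 8 libraries the highest sum was 1.10 times the lowest, compared with 2.17 times for the 9 myelin genes. The precursor sum joins genes with fold changes of both signs. Taken singly, 12 of the 14 had a highest level 1.19 to 1.71 times the lowest, while Ccnd1, a cyclin of dividing cells, reached 2.78 times and Matn4 2.75 times, against 1.91 to 2.74 times for the single myelin genes. None of the 14 had r above 0.8 with the mean of the 9. Of other myelin genes 10 of 18 did, and of further mature markers 13 of 23. So did 3 of 14 markers of newly formed cells, 4 of 12 striatal markers and 2 of 10 deep-layer markers. By r among tested genes outside the 9, Degs1 ranked 497 at 0.811 and Fgfr2 ranked 574 at 0.797. Few of the 17415 tested genes thus passed 0.8, so 0 of 14 does not set precursors apart from other genes. The precursor list had 10 of 14 genes above 0 in shAdnp (median 0.12) and 6 in shPogz (median -0.01). Matn4, a matrix protein that precursors express, was at 12.2 and 5.67 CPM in shAdnp libraries, against 4.41 and 5.44 CPM in their GFP controls, a log2 fold change of 0.85 (SE 0.32; edgeR unadjusted p = 0.0274, adjusted p = 0.496). Vcan, another, had 0.34 (SE 0.14; edgeR unadjusted p = 0.0339, adjusted p = 0.532) in shAdnp. Of 14 markers of newly formed oligodendrocytes, 7 were above 0 in shAdnp (median 0.02) and 8 in shPogz (median 0.01). Among them Gpr17, a receptor of differentiating cells, had a log2 fold change of 0.38 (SE 0.16; edgeR unadjusted p = 0.0402, adjusted p = 0.557) in shAdnp, and Enpp6 stood at 10.8 and 5.11 CPM in shAdnp libraries, against 6.92 and 7.96 CPM in their GFP controls, and at 7.30 and 14 CPM in shPogz libraries, against 7.43 and 7.90 CPM in theirs. Enpp6 followed the myelin genes more closely (r = 0.953) than Gpr17 did (r = 0.091).

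**Figure D5:**
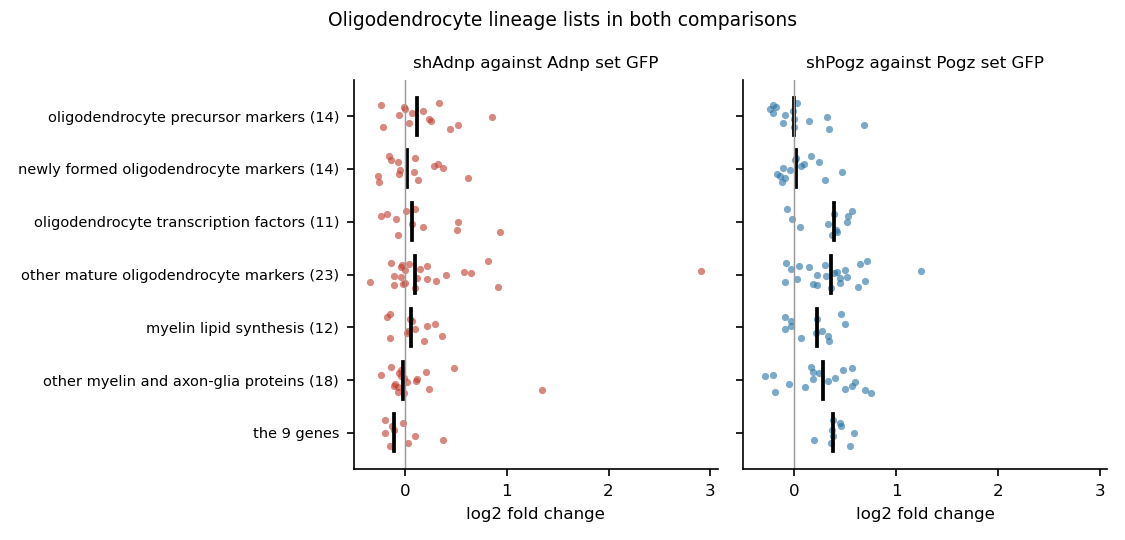
Log2 fold change of each tested gene (dots) and the median (bar) of the 9 genes and 6 other lists of the oligodendrocyte lineage, in shAdnp (left) and shPogz (right) against their GFP controls; brackets give the number of genes. In shPogz the bars of the mature lists and of the transcription factors lie between 0.22 and 0.39 and those of precursors and newly formed cells at -0.01 and 0.01. In each of the lists with the higher bars, mean log2 CPM was nearer the controls in shPogz replicate 1 than in shPogz replicate 2.

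Further genes of the lists were named because they were among the 3 smallest p of their list in a comparison, and none passed the adjusted p. Klk6, a secreted protease of oligodendrocytes, was at 19.5 and 5.20 CPM in shAdnp libraries, against 1.44 and 1.85 CPM in their GFP controls, and at 11.1 and 22.7 CPM in shPogz libraries, against 1.41 and 12.3 CPM in theirs. The Pogz-set controls differed by more from each other than the means of shPogz and its controls did. Its log2 fold change in shAdnp was 2.91 (SE 1.17; edgeR unadjusted p = 0.0657, adjusted p = 0.637). Cd9, a tetraspanin of myelin and of many other cells, had one of 1.34 (SE 0.47; edgeR unadjusted p = 0.0339, adjusted p = 0.532) in shAdnp, both libraries lying above both controls. In shPogz it had 0.69 (SE 0.47), again with both libraries above both controls. Omg, an oligodendrocyte-myelin glycoprotein that neurons also make, was lower in both shAdnp libraries than in both controls, at 110.4 and 109.7 CPM in shAdnp libraries, against 132 and 128 CPM in their GFP controls. Both shPogz libraries were below both of theirs too, and the log2 fold change was -0.24 (SE 0.10) in shAdnp and -0.21 (SE 0.10) in shPogz. Pmp22, a myelin protein best known from peripheral nerve, had a log2 fold change of 0.57 (SE 0.24; edgeR unadjusted p = 0.0426, adjusted p = 0.667) in shPogz. In shAdnp it had 0.49 (SE 0.23; edgeR unadjusted p = 0.0712, adjusted p = 0.650). Folh1, which splits the dipeptide N-acetylaspartylglutamate, was at 9.64 and 11.3 CPM in shPogz libraries, against 5.80 and 6.58 CPM in theirs, a log2 fold change of 0.76 (SE 0.19; edgeR unadjusted p = 0.00272, adjusted p = 0.667). Rimkla, an enzyme that makes that dipeptide in neurons, had values of -0.47 (SE 0.18; edgeR unadjusted p = 0.0283, adjusted p = 0.503) in shAdnp and -0.44 (SE 0.18; edgeR unadjusted p = 0.0385, adjusted p = 0.667) in shPogz. The 7 genes of N-acetylaspartate handling had a median r of -0.57 with the mean of the 9 myelin genes.

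Among 21 signals and receptors of myelination, 11 were above 0 in shAdnp (median 0.05) and 10 in shPogz (median -0.04). Igf1, a growth factor for oligodendrocytes that microglia also make, had a log2 fold change of 0.36 (SE 0.14; edgeR unadjusted p = 0.0324, adjusted p = 0.529) in shAdnp. Lif, a cytokine that promotes survival of oligodendrocytes, had one of 1.29 (SE 0.58; edgeR unadjusted p = 0.0529, adjusted p = 0.667) in shPogz at no more than 2.72 CPM.

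Markers of other cells moved between the same libraries. In shAdnp replicate 2, where the myelin genes were lowest, markers of deep cortical layers were lowest too. The sum of 10 such markers was 444 and 217 CPM in shAdnp libraries, against 422 and 427 CPM in their GFP controls, and 363 and 363 CPM in shPogz libraries, against 342 and 369.6 CPM in theirs. Rprm, a marker of layer 6 neurons, was at 73.9 and 21.1 CPM in shAdnp libraries, against 61.8 and 70.2 CPM in their GFP controls, and Tle4, another, at 113 and 63.1 CPM in shAdnp libraries, against 117 and 115 CPM in their GFP controls. Without shAdnp replicate 2 the median of the 10 markers in shAdnp was 0.01 with 6 of 10 above 0, against -0.38 with 0 of 10 above 0 in all libraries. Markers of upper layers summed to 734 and 1039 CPM in shAdnp libraries, against 847 and 829 CPM in their GFP controls, and 837 and 664 CPM in shPogz libraries, against 806 and 867 CPM in theirs. They were highest where the myelin genes were lowest and lowest where those were highest. Of 8 upper-layer markers, 6 were above 0 in shAdnp and 1 in shPogz. In shPogz replicate 2, where the myelin genes were highest, 12 striatal markers, all 12 above 0 in shPogz, summed to 393 and 524 CPM in shPogz libraries, against 354 and 359 CPM in theirs. In the other set the same 12, with 6 above 0, summed to 359 and 333 CPM in shAdnp libraries, against 408 and 391 CPM in their GFP controls. The 16 interferon-stimulated genes, all 16 above 0 in both comparisons, summed to 437 and 649 CPM in shAdnp libraries, against 153 and 378 CPM in their GFP controls, and to 1005 and 3028 CPM in shPogz libraries, against 351 and 406 CPM in theirs. The 8 markers of excitatory neurons, 2 of 8 above 0 in shAdnp and 0 of 8 in shPogz, summed to 2971 and 3722 CPM in shAdnp libraries, against 3641 and 3259 CPM in their GFP controls, and to 3026 and 2069 CPM in shPogz libraries, against 2825 and 3286 CPM in theirs. The 18 microglial markers, all 18 above 0 in shAdnp and 17 of 18 in shPogz, summed to 2294 and 1486 CPM in shAdnp libraries, against 658 and 880.2 CPM in their GFP controls, and to 1345 and 2224 CPM in shPogz libraries, against 1150.1 and 1194 CPM in theirs. Markers of the meninges, all 11 above 0 in shAdnp with 10 of 11 at an unadjusted p under 0.05 by edgeR (8.36% of all genes) and 0 adjusted, summed to 657 and 781 CPM in shAdnp libraries, against 503 and 489 CPM in their GFP controls, and to 469 and 452 CPM in shPogz libraries, against 403 and 488 CPM in theirs with 6 of 11 above 0. Mural cell markers, 9 of 9 above 0 in shAdnp and 3 of 9 in shPogz, summed to 258 and 269.6 CPM in shAdnp libraries, against 206 and 225 CPM in their GFP controls, and to 227 and 213 CPM in shPogz libraries, against 239 and 250.2 CPM in theirs. Both lists were highest in shAdnp replicate 2. At an unadjusted p under 0.05 by edgeR were 18 of 18 microglial markers in shAdnp and 1 of 18 in shPogz. For the interferon-stimulated genes it was 1 of 16 in shAdnp and 15 of 16 in shPogz. The shares of all genes were 8.36% in shAdnp and 6.7% in shPogz, and 0 of these markers passed the adjusted p. Astrocyte markers were above 0 for 9 of 12 in shAdnp and 1 of 12 in shPogz, interneuron markers for 3 and 0 of 8, endothelial markers for 8 and 3 of 10, and choroid plexus markers for 4 and 2 of 5. None of the tested deep-layer, upper-layer, striatal, neuronal, glial or vascular markers named here was at 0 in any library, the lowest being Nxph4 of the deep layers, at 0.144 CPM in shAdnp replicate 2. The part of these differences in the levels of the myelin genes was not tested.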

How the data were processed

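Bulk prefrontal cortex RNA was sequenced in 8 libraries, 2 in each of 4 groups taken from the sample titles. The authors deposited whole-number read counts per gene symbol, 1 file a library. Per the labels' protocols, RNA went into stranded total RNA libraries after ribosomal depletion, and reads were trimmed with Cutadapt and aligned with TopHat2. The submitters' processing notes name STAR, featureCounts, DESeq2 and build mm10; the sources used here do not state which aligner made the counts, its version or the strand setting. The protocol calls the libraries biological duplicates without naming animals, so p-values measure the spread between these samples.

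In the count files 25 symbols had become dates (0.306 to 0.337% of counts) and 2 rows were blank; both kinds were left out. A count filter (minimum 10) left 17415 of 23393 genes. These were scaled by TMM and tested with edgeR 4.0.16 (quasi-likelihood, robust, group means of all 8 libraries, 4 residual degrees of freedom; 5 with set and vector terms) in R 4.3.3, with Benjamini-Hochberg adjustment over all genes at 0.05. The test was run on simulated data first. Per-gene log2 levels used a prior count of 2. No replicate pair agreed within counting noise. Alternatives were DESeq2 1.42.0, limma-voom 3.58.1, other scalings and filters, fewer libraries, a replicate block and each library left out.

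The 9 genes and the other lists were chosen with earlier results of these data known. Genes of the oligodendrocyte lists were named by the 3 smallest p in each comparison, 8 by likeness to the 9 (not all of the genes so chosen are reported here), and genes of other cell types by mean level. Promoter sequences are from RefSeq, build GRCm38.p6, and gene positions from GENCODE; both were read with Python 3.11.15.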

Additional observations from a re-analysis of the deposited data

How the results depend on the processing

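Every one of the 9 genes stayed on the side of no call in all 5 comparisons under every alternative, the lowest adjusted p being 0.205 (Aspa in shPogz without shPogz replicate 1). The number of genes called among all tested did change. DESeq2 called 420 in shAdnp, 100 in shPogz, 2 for the difference of the responses, 711 over both vectors and 73 between the control pairs, against 0, 0, 0, 0 and 1 by edgeR, and the cause was not tested. Between the control pairs 6 genes were called with no low-count filter, and 6 at an adjusted p of 0.1. With each library left out in turn, the lone library being assumed to vary like the other groups, genes called were 0 to 8 in shAdnp (8 without shAdnp replicate 1), 0 to 153 in shPogz (153 without shPogz replicate 1), 0 to 4 for the difference (4 without shAdnp replicate 1), 0 to 556 over both vectors (556 without shPogz replicate 1) and 0 to 6 between the control pairs (6 without Pogz-set GFP replicate 2). The median of the 9 genes was then -0.60 to 0.35 in shAdnp, 0.084 to 0.69 in shPogz, 0.089 to 1.05 for the difference, -0.020 to 0.43 over both vectors and -0.30 to 0.17 between the control pairs. Among single genes, 42 of 360 values with a library left out changed sign, and 6 of 342 under the other alternatives. The range in shAdnp was -0.60 to 0.22 for Aspa, -0.35 to 0.37 for Cnp, -0.39 to 0.89 for Gjb1, -0.33 to 0.46 for Mag, -0.92 to 0.30 for Mal, -0.69 to 0.33 for Mbp, -0.78 to 0.35 for Mobp, -0.55 to 0.39 for Mog, -0.64 to 0.17 for Opalin. The range in shPogz was 0.084 to 0.94 for Aspa, 0.063 to 0.65 for Cnp, -0.23 to 0.56 for Gjb1, 0.095 to 0.66 for Mag, 0.18 to 0.95 for Mal, 0.11 to 0.64 for Mbp, 0.081 to 0.79 for Mobp, 0.087 to 0.78 for Mog, 0.055 to 0.69 for Opalin. The range for the difference of the responses was 0.23 to 1.16 for Aspa, -0.0023 to 0.73 for Cnp, -0.67 to 0.60 for Gjb1, -0.061 to 0.73 for Mag, 0.32 to 1.52 for Mal, 0.074 to 1.08 for Mbp, 0.14 to 1.26 for Mobp, 0.089 to 1.01 for Mog, 0.24 to 1.05 for Opalin. The range over both vectors was -0.053 to 0.43 for Aspa, -0.026 to 0.50 for Gjb1 and -0.047 to 0.49 for Mal. It was -0.020 to 0.38 for Mbp, -0.042 to 0.43 for Mobp and -0.093 to 0.32 for Opalin. Cnp at 0.044 to 0.38, Mag at 0.10 to 0.43 and Mog at 0.025 to 0.44 kept their sign. The range between the control pairs was -0.30 to 0.29 for Cnp, -0.044 to 0.59 for Gjb1 and -0.27 to 0.33 for Mag. It was -0.69 to 0.0053 for Mal, -0.43 to 0.059 for Mbp, -0.47 to 0.17 for Mobp and -0.074 to 0.45 for Mog. Aspa at -0.18 to -0.0082 and Opalin at -0.35 to -0.11 kept their sign. Mog in shAdnp was 0.0036 with upper quartile scaling and 0.011 with the 4 libraries compared alone. Mag between the control pairs was 0.0078 with limma-voom, 0.00066 with scaling by relative log expression, 0.025 with upper quartile scaling and 0.0064 with the 4 libraries alone. Deviations of libraries with the same replicate number had r of -0.0085 in the Adnp set and 0.047 in the Pogz set over 17415 genes. An r over all genes cannot show whether such libraries share a source of variation in some genes, and this was not tested. The replicate block called 175 genes in shAdnp, 31 in shPogz, 405 over both vectors and 18 between the control pairs, and none of the 9. With 2 libraries a group, the spread between replicates, not counting error, limits these genes: the lowest member count was 268 reads.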
